A study of Mus musculus with 18 samples.

Results

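The interleukin 1 family is represented here by the ligands Il33, Il18, Il1a and Il1b, the receptor antagonist Il1rn and the receptors Il1r1 and Il1r2. All probe sets whose single gene symbol in the platform annotation is one of these names were taken, which gave 10 probe sets of 45037 that are not controls, and 7 genes of 18193 with a symbol of their own. A gene was tested where its probe set exceeded the median of the array on at least 3 of 18 arrays, and 5 of the 7 members passed, among 11569 genes. Il1a and Il1b did not pass this filter and are described mainly by their signals.

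The signals come from 18 Affymetrix MOE 430 2.0 arrays, each with RNA of sorted skin cells of a K5tTA x pTRE-H2B-GFP mouse from FvB and CD1 parents. In these mice the Keratin 5 promoter drives a histone-GFP label that doxycycline shuts off, so that dividing cells dilute it, and every mouse of every group carried both transgenes and ate doxycycline at 1 g per kg of food. Surface CD34 and α6-integrin separated cells of the bulge, the stem cell niche of the hair follicle, from non-bulge cells, and the remaining GFP separated bulge cells that had divided 1 to 2 times from those with 0 divisions. The groups, with 3 mice each, are divided bulge, undivided bulge and non-bulge cells at postnatal day 25 (PD25, doxycycline from PD22) and the same fractions at PD21 (doxycycline from PD18), from other mice. The label marks only cells that use this promoter, and the cell types of the non-bulge fraction are not stated in the labels. In such bulk samples, fewer cells of a type and less RNA per cell cannot be told apart.

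Interleukin 1 cytokines are alarm signals of barrier tissues. IL1A and IL1B bind IL1R1, which pairs with the accessory protein IL1RAP and signals through MYD88 and IRAK kinases to NF-kB. The response to IL1A and IL1B is held back by the antagonist IL1RN, which occupies IL1R1 without signalling. It is also held back by IL1R2, a decoy receptor that binds ligand and lacks the signalling domain. IL33 and IL18 bind other receptors. IL33 is stored in the nucleus of keratinocytes and other barrier cells and is released when cells are damaged.

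The sorted fractions were checked against 7 bulge genes. Their summed signal was 23720 to 36500 in divided bulge, 29560 to 35470 in undivided bulge and 2135 to 2973 in non-bulge cells at PD25. At PD21 it was 4059 to 8279 in divided bulge, 34420 to 43430 in undivided bulge and 1816 to 2690 in non-bulge cells. The fraction labelled divided bulge at PD21 therefore had bulge gene levels much closer to non-bulge than to undivided bulge cells. Cd34, the surface marker of the sort, had signals of 568.5, 224.7 and 806.8 in that fraction, against 8912.8, 5402.8 and 6491.3 in undivided bulge cells of the same mice. The array of non-bulge mouse 1 at PD21 stood apart in leukocyte genes, with a summed signal of 2749 over 11 genes, against 602.2 and 671 in the other non-bulge mice of that age. The arrays also fell into 2 sets of 9 by the signal of the BioB hybridisation control (mean log2 9.83 to 10.31 in set A and 11.56 to 12.13 in set B), and each set held all 6 groups.

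The windows of RefSeq around the annotated starts (GRCm38.p6, 250 bases before to 50 after the start) are printed for Il33, Il1r2 and Il1rn, the 3 members that moved together between the fractions. All are on the plus strand. Capitals mark matches, on either strand, to 4 motifs. These are the TATA box (TATAAA), the AP-1 site (TGANTCA), the RUNX site (TGTGGT) and a form of the NF-kB site. Il33 has 2 annotated starts, and Il1rn has 3, of which the second overlaps the third and is not printed. The arrays do not tell the starts of a gene apart.
Il33 start 1, chr19:29924863-29925162: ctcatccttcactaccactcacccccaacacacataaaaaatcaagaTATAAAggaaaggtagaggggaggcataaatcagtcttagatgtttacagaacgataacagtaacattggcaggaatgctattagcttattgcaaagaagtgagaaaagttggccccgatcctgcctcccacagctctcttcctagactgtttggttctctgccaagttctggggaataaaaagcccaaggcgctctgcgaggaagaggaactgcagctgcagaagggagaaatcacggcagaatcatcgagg
Il33 start 2, chr19:29945540-29945839: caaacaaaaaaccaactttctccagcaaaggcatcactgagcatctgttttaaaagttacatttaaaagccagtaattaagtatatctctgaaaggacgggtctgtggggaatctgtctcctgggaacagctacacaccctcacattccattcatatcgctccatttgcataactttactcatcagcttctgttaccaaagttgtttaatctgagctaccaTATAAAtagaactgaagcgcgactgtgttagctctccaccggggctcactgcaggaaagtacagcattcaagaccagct
Il1r2, chr1:40085843-40086142: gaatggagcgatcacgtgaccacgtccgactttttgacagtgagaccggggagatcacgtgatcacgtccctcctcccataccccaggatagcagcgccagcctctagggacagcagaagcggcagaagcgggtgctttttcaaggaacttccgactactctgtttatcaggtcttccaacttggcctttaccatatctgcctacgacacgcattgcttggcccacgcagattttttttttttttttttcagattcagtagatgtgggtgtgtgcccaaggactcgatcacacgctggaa
Il1rn start 1, chr2:24336610-24336909: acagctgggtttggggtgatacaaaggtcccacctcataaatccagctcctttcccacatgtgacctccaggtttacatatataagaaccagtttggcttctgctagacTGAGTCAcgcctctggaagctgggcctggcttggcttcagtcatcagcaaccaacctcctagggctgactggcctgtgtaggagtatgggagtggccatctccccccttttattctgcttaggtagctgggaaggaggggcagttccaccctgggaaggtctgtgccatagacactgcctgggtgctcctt
Il1rn start 3, chr2:24345121-24345420: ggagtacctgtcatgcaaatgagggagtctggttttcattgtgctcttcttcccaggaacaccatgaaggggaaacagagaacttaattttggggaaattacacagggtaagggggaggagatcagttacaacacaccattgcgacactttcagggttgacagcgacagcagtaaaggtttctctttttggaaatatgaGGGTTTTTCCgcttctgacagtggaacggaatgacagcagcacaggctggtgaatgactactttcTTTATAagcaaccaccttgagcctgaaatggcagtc

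Il33 start 1 holds TATAAA at -203 and start 2 at -29, positions being those of the first base of the match, with the first of the 50 bases after the start counted as 0. Il1rn start 1 holds the AP-1 match TGAGTCA at -141, and start 3 holds the NF-kB match GGGTTTTTCC at -51 and TTTATA, which is TATAAA on the other strand, at 14. The window of Il1r2 has 0 matches. Of all 32851 windows of this length, 13.6% hold the TATA box letters, 7.8% the AP-1, 1.6% the NF-kB and 16.8% the RUNX letters on either strand, and no matches overlap one another in the printed windows. A match describes letters and is not a site in use, and the absence of one says nothing about the factor. In the RefSeq gene order of GRCm38.p6, Il1r2 lies directly before Il1r1 and Il1rl2 on chromosome 1, Il1a directly before Il1b on chromosome 2, and Il1rn next to Il1f10, also on chromosome 2.

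Il33, Il1r2 and Il1rn were lower in undivided bulge cells than in non-bulge cells at both ages. In divided bulge cells they were lower than in non-bulge cells at PD25, and at PD21 their differences from non-bulge cells were small and did not pass. Il1r1 was lower in undivided bulge cells at PD21, its difference at PD25 did not pass, and the test of the change between the ages did not pass. Il18 did not pass in any of 12 comparisons.

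**Figure D1:**
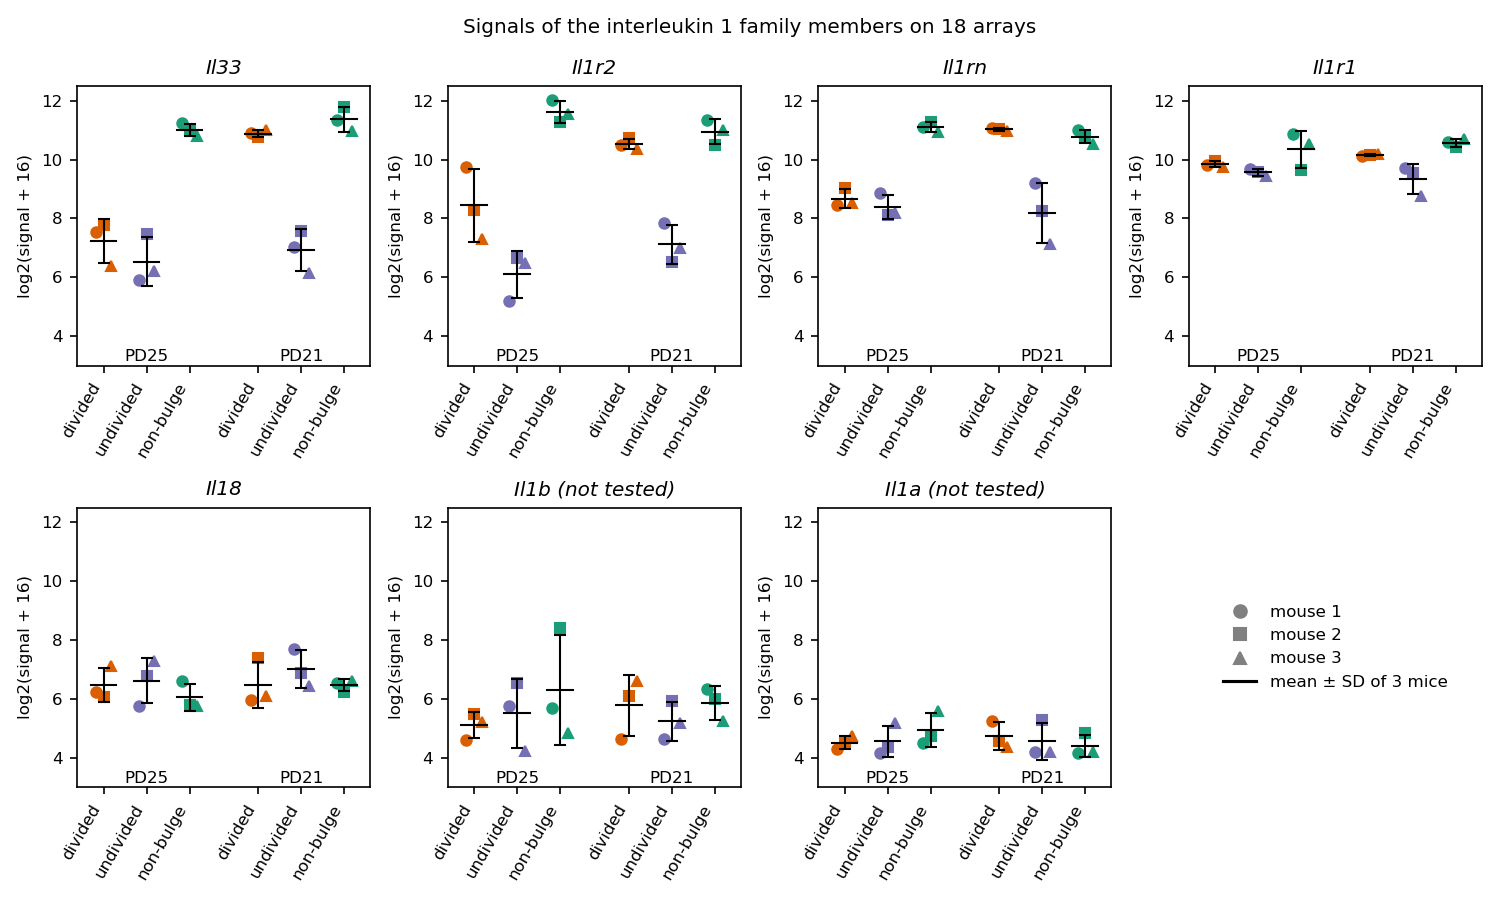
Signals of the 7 members as log2(signal + 16) (vertical axis) in the 6 groups (horizontal axis, PD25 left of PD21), with 1 representative probe set per gene, 1 symbol per mouse, and the mean with a bar of 1 SD over 3 mice. For Il33, Il1r2 and Il1rn the undivided bulge arrays lie below all non-bulge arrays at both ages, and the divided bulge arrays lie below all non-bulge arrays at PD25 and overlap them at PD21.

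Among the ligands, Il33 (probe set 1416200_at) had the widest separation between fractions. At PD25 its signals were 170.2, 202.0 and 66.8 in divided bulge, 43.8, 163.0 and 57.5 in undivided bulge and 2378.5, 1992.8 and 1776.9 in non-bulge cells of mice 1 to 3. At PD21 they were 1896.5, 1721.3 and 2015.5 in divided bulge, 114.5, 174.3 and 55.5 in undivided bulge and 2586.1, 3552.9 and 1976.0 in non-bulge cells. The low arrays were the 3 undivided ones at each age and the 3 divided ones at PD25, and none of these 9 reached the range of the other 9. Divided and undivided bulge cells overlapped at PD25, and divided bulge and non-bulge cells overlapped at PD21.

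Il33 averaged 146.3 ± 70.7 in divided bulge, 88.1 ± 65.2 in undivided bulge and 2049 ± 305 in non-bulge cells at PD25, and 1878 ± 148 in divided bulge, 114.8 ± 59.4 in undivided bulge and 2705 ± 795 in non-bulge cells at PD21 (SD, n = 3 each). From low to high the order was undivided bulge at PD25, undivided bulge at PD21, divided bulge at PD25, divided bulge at PD21, non-bulge at PD25 and non-bulge at PD21. Neighbours in that order overlapped, except divided bulge at PD25 and at PD21.

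Il18, a ligand made as a precursor that caspase 1 cleaves, was dim. Its probe set (1417932_at) ranged from 38 to 192.5 over 18 arrays and exceeded the array median on 6 of them. At PD25 it was 58.4, 50.9 and 122.7 in divided bulge, 38.5, 94.2 and 137.9 in undivided bulge and 80.5, 39.8 and 38.0 in non-bulge cells. At PD21 it was 46, 150 and 53 in divided bulge, 192.5, 100 and 71.4 in undivided bulge and 77.2, 59.7 and 81.7 in non-bulge cells. All groups overlapped at each age.

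Il1a and Il1b, the classical agonists of IL1R1, were at the lower end of the array. Il1a (1421473_at) had signals between 1.7 and 32.1 and exceeded the array median on 0 arrays. Il1b (1449399_a_at) had signals between 2.9 and 324.3, with 1 array above its median. That array was non-bulge mouse 2 at PD25, whose group had signals of 35.8, 324.3 and 12.4. Both genes were tested only where every probe set was fitted, without the filter, and neither passed in any of 12 comparisons (adjusted p of limma at least 0.6238 for Il1b and 0.8011 for Il1a). Low signals of this chip do not show that a transcript is absent.

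The antagonist Il1rn was measured by 3 probe sets, of which 1423017_a_at has the highest mean log2 signal and represents the gene. At PD25 its signals were 335.9, 513.6 and 348.6 in divided bulge, 444.4, 257.9 and 274.0 in undivided bulge and 2170.7, 2450.1 and 1938.7 in non-bulge cells. At PD21 they were 2154.1, 2089.6 and 1975.0 in divided bulge, 569.9, 286.1 and 125.5 in undivided bulge and 2013.7, 1775.5 and 1476.4 in non-bulge cells. Non-bulge cells at both ages and divided cells at PD21 were high, and the other 9 arrays were low without overlap. At PD21, divided bulge and non-bulge cells overlapped. The means were 399.4 ± 99.1 in divided bulge, 325.4 ± 103 in undivided bulge and 2186 ± 256 in non-bulge cells at PD25, and 2073 ± 90.7, 327.2 ± 225 and 1755 ± 269 in the same fractions at PD21 (SD, n = 3 each). From low to high the order was undivided bulge at PD25, undivided bulge at PD21, divided bulge at PD25, non-bulge at PD21, divided bulge at PD21 and non-bulge at PD25. Neighbours overlapped, except divided bulge at PD25 and non-bulge at PD21. This order is of the mean signals, and on the log2 scale undivided bulge cells averaged 8.37 at PD25 and 8.19 at PD21.

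The other Il1rn probe sets, 1425663_at and 1451798_at, were high in the same groups, with some neighbours in another order, and had correlations of 0.86 to 0.92 among the 3 over 18 arrays, which share the mice and groups. Where every probe set was fitted, all 3 passed in the same direction in PD25 against PD21 divided cells, in undivided against non-bulge cells at both ages, in divided against non-bulge cells at PD25 and in divided against undivided cells at PD21. They differed in divided against undivided cells at PD25, with log2 differences of 0.30, 0.26 and 1.44 for 1423017_a_at, 1425663_at and 1451798_at, and none of the 3 passed. In PD25 against PD21 undivided cells they had 0.18, -1.11 and -1.16 in the same order, and none passed there either.

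The decoy receptor Il1r2 (1419532_at) had signals of 843.6, 292.9 and 142.3 in divided bulge, 20.4, 83.7 and 73.3 in undivided bulge and 4197.4, 2483.5 and 2953.8 in non-bulge cells at PD25. At PD21 it had 1416.9, 1676.8 and 1308.8 in divided bulge, 213.9, 75.7 and 110.8 in undivided bulge and 2600.5, 1423.9 and 2036.9 in non-bulge cells. Undivided cells were the lowest at both ages, and at PD25 the 3 divided arrays lay between undivided and non-bulge cells without overlap with either. Of all genes, 9.93% did not overlap between divided and undivided cells at PD25, and 21.9% between divided and non-bulge cells. Divided cells at PD25 averaged 426.3 ± 369 (SD, n = 3), with the widest spread of the 6 groups on the log2 scale (SD 1.23). Undivided bulge cells averaged 59.1 ± 33.9 and non-bulge cells 3212 ± 886 at PD25, and the means at PD21 were 1468 ± 189 in divided bulge, 133.5 ± 71.8 in undivided bulge and 2020 ± 589 in non-bulge cells (SD, n = 3 each). From low to high the order was undivided bulge at PD25, undivided bulge at PD21, divided bulge at PD25, divided bulge at PD21, non-bulge at PD21 and non-bulge at PD25. Neighbours overlapped, except divided bulge at PD25 and at PD21.

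The signalling receptor Il1r1 (1448950_at) exceeded the array median on all 18 arrays. At PD25 it had signals of 896.2, 969.9 and 838.3 in divided bulge, 811.1, 741.6 and 678.1 in undivided bulge and 1870.5, 794.6 and 1465.7 in non-bulge cells. At PD21 it had 1096.0, 1123.4 and 1155.9 in divided bulge, 817.0, 720.8 and 415.4 in undivided bulge and 1519.1, 1363.7 and 1636.4 in non-bulge cells. The PD21 groups did not overlap (as for 8.71% to 26.0% of all genes by comparison), while non-bulge mouse 2 at PD25 fell among the bulge arrays. The means were 901.5 ± 66.0 in divided bulge, 743.6 ± 66.5 in undivided bulge and 1377 ± 543 in non-bulge cells at PD25, and 1125 ± 30.0, 651.1 ± 210 and 1506 ± 137 in the same fractions at PD21 (SD, n = 3 each). From low to high the order was undivided bulge at PD21, undivided bulge at PD25, divided bulge at PD25, divided bulge at PD21, non-bulge at PD25 and non-bulge at PD21. Divided bulge at PD25 did not overlap with either of its neighbours, and the other neighbours overlapped. A second Il1r1 probe set, 1459777_at, was at 0.3 to 17.7 and above the median on 0 arrays.

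The first comparison asks how bulge cells that kept their label differ from the other skin cells. Differences are on the log2(signal + 16) scale, with the standard error (SE) of a limma fit to all 18 arrays, and a gene passed at a Benjamini-Hochberg adjusted p under 0.05. At PD25, 3 of 5 tested members passed in undivided against non-bulge cells, all lower, while 10.5% of all tested genes passed and 4.83% passed lower. Il1r2 fell by 5.52 (SE 0.49, adjusted p = 3.66e-08). Its signal in undivided cells was below the array median on 3 of 3 arrays (64, 105.1 and 74.9 in mice 1 to 3), and non-bulge over undivided ratios were 206, 29.7 and 40.3, so that the size of the difference is imprecise. Il33 fell by 4.47 (SE 0.44, adjusted p = 1.38e-07) and Il1rn by 2.72 (SE 0.36, adjusted p = 8.38e-06). Il33 in undivided cells was below the array median in mice 1 and 3, and its non-bulge over undivided ratios were 54.3, 12.2 and 30.9, so its size is imprecise too. The groups of these 3 members did not overlap, as for 24.4% of all genes. Il1r1 differed by -0.79 (SE 0.29, adjusted p = 0.0869), and by -1.14 (adjusted p = 0.00838) without non-bulge mouse 2.

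At PD21, 4 of 5 members passed in undivided against non-bulge cells, all lower, where 11.0% of all genes passed (4.93% lower), or 16.6% with a mouse block. Il33 fell by 4.45 (SE 0.44, adjusted p = 1.38e-07), the fourth largest decrease, or 21.8-fold. Its same-mouse ratios were 22.6, 20.4 and 35.6, and its undivided signal in mouse 3 was below the array median (55.5 against 105.3). Il1r2 fell by 3.83 (SE 0.49, adjusted p = 5.68e-06), Il1rn by 2.59 (SE 0.36, adjusted p = 1.85e-05) and Il1r1 by 1.24 (SE 0.29, adjusted p = 0.00433). Each of the 4 was lower in 3 of 3 mice, and their groups did not overlap, as for 26.0% of all genes. Il1r1 did not pass within array set A, at -0.89 (adjusted p = 0.0939), and differed by -1.94 within set B, which holds 1 PD21 mouse. Without non-bulge mouse 1, the array with high leukocyte genes, the differences were -4.46 for Il33, -3.63 for Il1r2, -2.48 for Il1rn and -1.23 for Il1r1, and all 4 passed.

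The bulge fractions were compared with non-bulge cells in the divided state as well. At PD25, 3 of 5 members passed in divided against non-bulge cells, all lower, where 8.87% of all genes passed and 3.25% passed lower. Il33 fell by 3.78 (SE 0.44, adjusted p = 2.12e-06), the fourth largest decrease. Il1r2 fell by 3.18 (SE 0.49, adjusted p = 8.90e-05) and Il1rn by 2.43 (SE 0.36, adjusted p = 6.02e-05), while Il1r1 differed by -0.52 (SE 0.29, adjusted p = 0.37). The groups of these 3 members did not overlap, as for 21.9% of all genes. Within array set A, which holds 1 PD25 mouse, Il1r2 differed by -2.29, and within set B by -3.62 (adjusted p = 5.22e-05).

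At PD21, 0 of 5 members passed in divided against non-bulge cells by limma, and 0.182% of all genes passed (0.424% with the mouse as a block). At an unadjusted p under 0.05 there were 0 members and 487 genes. The differences were -0.48 (SE 0.44) for Il33, -0.42 (SE 0.49) for Il1r2, 0.25 (SE 0.36) for Il1rn, -0.41 (SE 0.29) for Il1r1 and 0.01 (SE 0.57) for Il18. Only Il1r1 had groups that did not overlap, as did 8.71% of all genes. The summed bulge genes were 4059 to 8279 in these divided cells, and the part of this in the members' levels was not tested.

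**Figure D2:**
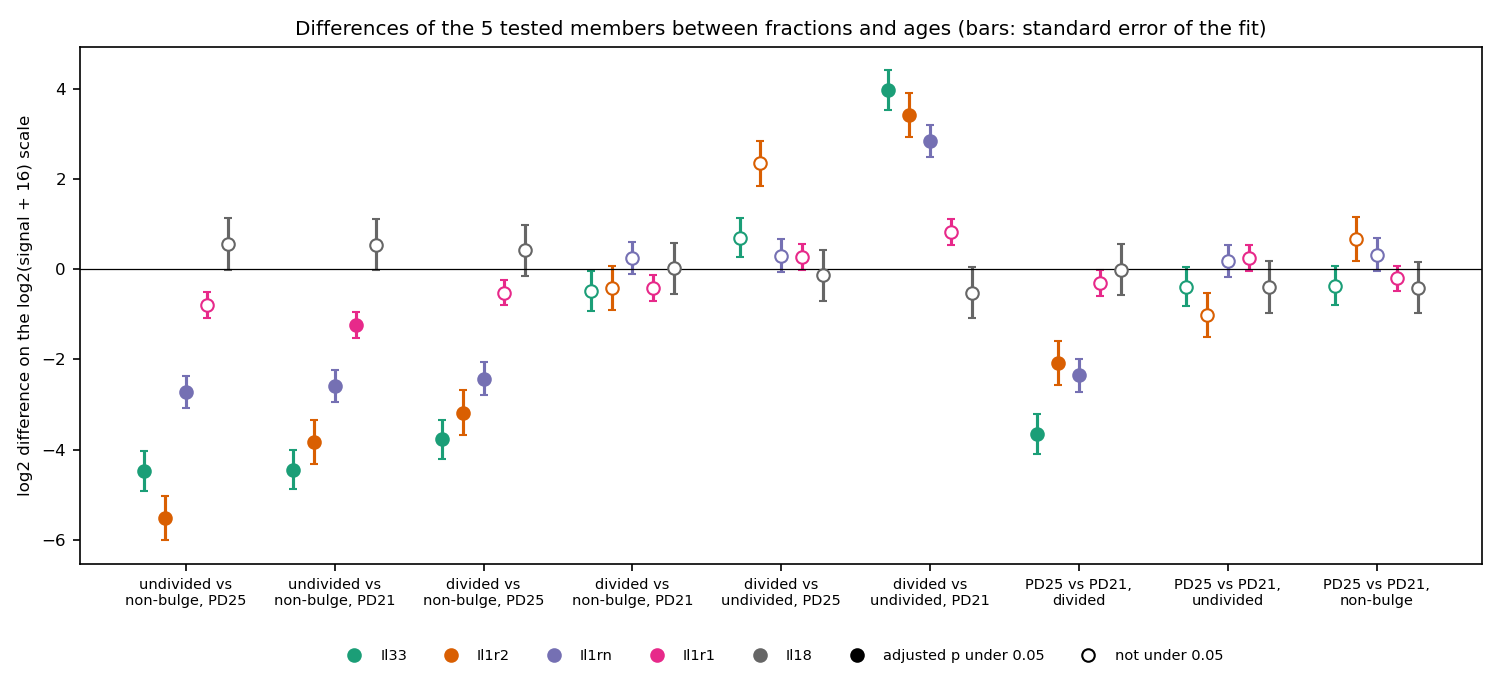
Fitted log2 differences (vertical axis) of the 5 tested members in 9 comparisons (horizontal axis), with bars of 1 standard error, filled where the adjusted p was under 0.05. Il33, Il1r2 and Il1rn lie below 0 in both undivided comparisons, in divided against non-bulge cells at PD25 and in PD25 against PD21 divided cells, and above 0 in divided against undivided cells at PD21.

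Divided and undivided bulge cells of the same mice differ in their division history. At PD25, 0 of 5 members and 0% of all genes passed in divided against undivided cells by limma, with 635 genes at an unadjusted p under 0.05 and 0.0864% of genes passing with a mouse block. Il1r2 differed by 2.34 (SE 0.49, unadjusted p = 7.77e-05, adjusted p = 0.117), and was higher in 3 of 3 mice. Its groups and those of Il1r1 did not overlap, as for 9.93% of all genes. The same-mouse differences of Il1r2 were 4.56, 1.63 and 0.83 in mice 1 to 3, so that mouse 1 was far above the others. The value was 2.91 (adjusted p = 0.0225) without divided mouse 3. Within array set B it was 1.23 and did not pass, and within set A, which holds mouse 1 alone at PD25, it was 4.56. Il33 differed by 0.70 (SE 0.44) and Il1rn by 0.30 (SE 0.36).

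At PD21, 3 of 5 members passed in divided against undivided cells, all higher, where 8.28% of all genes passed (3.91% higher), or 13.3% with a mouse block. Il33 rose by 3.96 (SE 0.44, adjusted p = 5.33e-06), or 15.6-fold, the seventh largest increase. Il1r2 rose by 3.41 (SE 0.49, adjusted p = 6.32e-05) and Il1rn by 2.83 (SE 0.36, adjusted p = 1.79e-05), each higher in 3 of 3 mice. The groups of these 3 and of Il1r1 did not overlap, as for 23.7% of all genes. Il1r1 differed by 0.83 (SE 0.29, adjusted p = 0.0787) and by 0.83 (adjusted p = 0.0382) without non-bulge mouse 2 at PD25. Within array set A the differences were 3.53 for Il33, 3.42 for Il1r2 and 2.35 for Il1rn, and all passed. Set B holds 1 PD21 mouse, in which the differences were 4.83, 3.39 and 3.81. In the same comparison Cd34 fell by 3.80 and Lhx2, a transcription factor of bulge stem cells, by 2.16, and whether that moved the members was not tested.

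To set the divided cells between the other fractions of the same mouse, their signal was placed on a linear scale with 0% at undivided bulge and 100% at non-bulge cells. At PD25 Il33 stood at 5.41%, 2.13% and 0.541% in mice 1 to 3. Il1r2 stood at 19.7%, 8.72% and 2.40%, and Il1rn at -6.29%, 11.7% and 4.48%. On this linear scale all 9 values were under 20%, but as a ratio Il1r2 in mouse 1 was 41.4-fold above undivided and 4.98-fold below non-bulge cells, since its undivided signal was 20.4.

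At PD21 Il33 stood at 72.1%, 45.8% and 102%, Il1r2 at 50.4%, 119% and 62.2%, and Il1rn at 110%, 121% and 137%. Il1rn lay beyond non-bulge cells in 3 of 3 mice, Il1r2 in mouse 2 and Il33 in mouse 3, and the other 4 values lay between the fractions. The bulge genes Cd34 and Lhx2 gave 93.6%, 95.9% and 87.9%, and 80.3%, 87.8% and 77.0%, for the same cells.

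**Figure D3:**
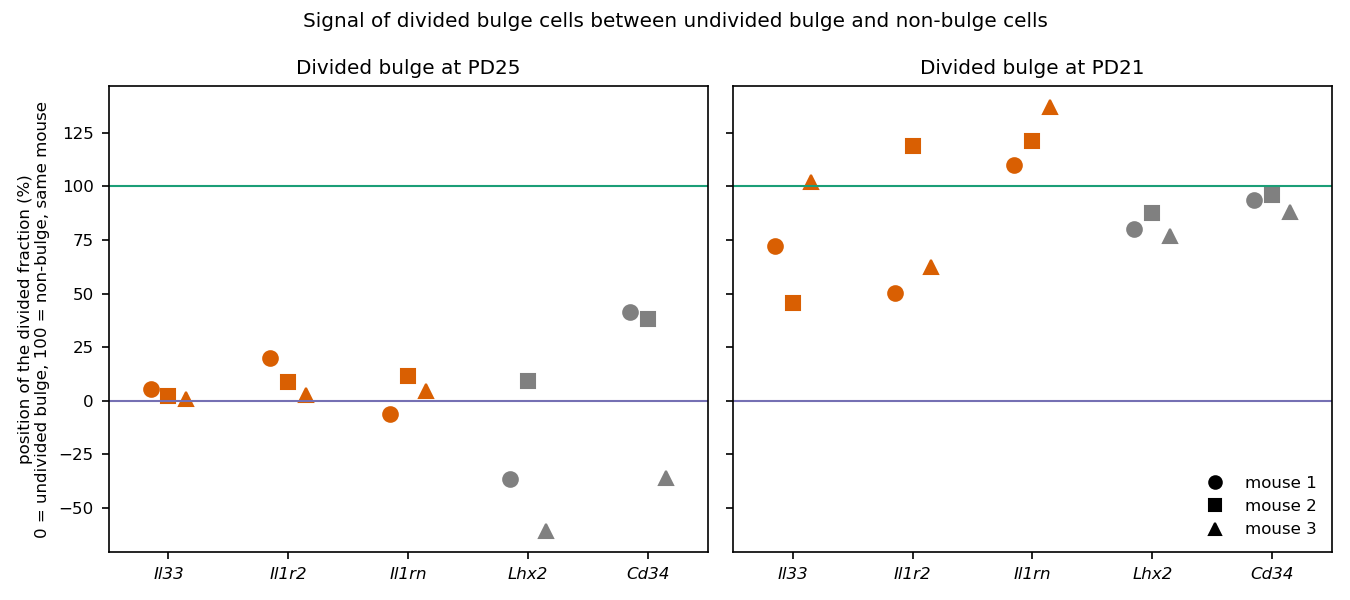
Position of the divided bulge signal (vertical axis, %) between undivided bulge (0) and non-bulge cells (100) of the same mouse, for 3 members and the bulge genes Lhx2 and Cd34 in grey, with 1 symbol per mouse and PD25 left of PD21. All member points at PD25 lie between -6.29% and 19.7%, and all member points at PD21 lie between 45.8% and 137%.

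Between the ages, Il33, Il1rn and Il1r2 were lower in PD25 divided bulge cells than in PD21 divided bulge cells. Of 5 members, 3 passed in PD25 against PD21 divided bulge cells, all lower, where 7.84% of all genes passed and 3.47% passed lower. Il33 fell by 3.66 (SE 0.44, adjusted p = 1.15e-05), or 12.6-fold, the fifth largest decrease. Il1rn fell by 2.36 (SE 0.36, adjusted p = 0.000165). The groups of these members and of Il1r1 did not overlap, as for 21.3% of all genes. Il1r2 fell by 2.09 (SE 0.49, adjusted p = 0.00805), a call that rests on 1 array, since it was -1.52 (adjusted p = 0.0767) without PD25 divided mouse 3. Within array set A, which holds 1 PD25 mouse, Il1r2 differed by -0.86, and within set B, which holds 1 PD21 mouse, by -2.58. In sets A and B Il1rn differed by -2.60 and -2.18, and Il33 by -3.29 and -3.92. The summed bulge genes were 23720 to 36500 in PD25 divided cells, against 4059 to 8279 in PD21 divided cells, and their part in this difference was not tested.

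In non-bulge cells, 0 of 5 members passed in PD25 against PD21, with 0.0432% of all genes passing and 511 genes at an unadjusted p under 0.05, and all members overlapped (8.86% of all genes did not). In undivided bulge cells 0 of 5 passed, with 0.0951% of all genes passing (0.190% with the mouse as a random block) and 929 genes at an unadjusted p under 0.05. By their representative probe sets all members overlapped (12.3% of all genes did not). There, Il1r2 differed by -1.01 (SE 0.49, unadjusted p = 0.0492, adjusted p = 0.619), the only member below 0.05 unadjusted in either fraction by its representative probe set. Where every probe set was fitted with limma, 1425663_at of Il1rn had -1.11 without overlap (unadjusted p = 0.0165, adjusted p = 0.75).

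The difference between the ages was then tested as a difference of differences. For divided minus non-bulge cells, 3 of 5 members passed, all more negative at PD25, where 1.63% of all genes passed (0.717% lower), or 3.90% with a mouse block. The values were -3.29 for Il33 (SE 0.62, adjusted p = 0.00676), -2.67 for Il1rn (SE 0.51, adjusted p = 0.00791) and -2.76 for Il1r2 (SE 0.69, adjusted p = 0.0418). Where every probe set was fitted, 1425663_at of Il1rn had -3.10 and passed (adjusted p = 0.0192), and 1451798_at had -3.14 and did not (adjusted p = 0.0893). The call for Il1r2 was lost in 13 of 27 alternative settings, with adjusted p-values from 0.00909 to 0.128 and values from -3.41 to -2.19. It was lost without any 1 array of the divided and non-bulge groups other than PD21 divided mouse 3 and PD25 divided mouse 1.

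For divided minus undivided cells, 2 of 5 members passed, where 1.18% of all genes passed (0.372% lower), or 4.37% with a mouse block. Il33 had -3.27 (SE 0.62, adjusted p = 0.00894) and Il1rn -2.54 (SE 0.51, adjusted p = 0.0114). Where every probe set was fitted, the Il1rn difference passed for 1423017_a_at (adjusted p = 0.0213), while 1425663_at had -1.82 (adjusted p = 0.273) and 1451798_at -1.64 (adjusted p = 0.618). For undivided minus non-bulge cells 0 of 5 members and 0% of all genes passed by limma, with 446 genes at an unadjusted p under 0.05 and 0.0173% of genes passing with a mouse block. Within each array set, 0 members passed in any of these 3 differences. Within set B 0% of all genes passed in any of them, and within set A 0.769% passed for divided minus non-bulge, 0.484% for divided minus undivided and 0.0259% for undivided minus non-bulge cells, so that these counts say little about the members. Il1rn was -2.80 within set A and -2.74 within set B for divided minus non-bulge cells, and -2.73 and -3.17 for divided minus undivided cells. Il33 was -1.89 within set A and -4.60 within set B for divided minus undivided cells, and -2.94 and -3.85 for divided minus non-bulge cells.

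Il33, Il1r2 and Il1rn followed one another over the 18 arrays, with Pearson correlations of 0.94 for Il33 with Il1rn, 0.92 for Il33 with Il1r2 and 0.88 for Il1r2 with Il1rn. Il1r1 had correlations of 0.78 to 0.81 with these 3, and Il18 -0.31 to -0.18 with all 4. The arrays share mice and groups, so that these correlations hold the differences between group means.

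Of the 11569 tested genes, those most like Il33 over 18 arrays were Satb1, Exph5 and Fam3c, with a Pearson correlation of 0.98 each. Il1r2 was most like Oas1f (0.97), Rab20 (0.96) and Slc6a4 (0.96). Il1rn was most like Marveld2 (0.98), Ppp2r2c (0.96) and Ctsc (0.96). Il1r1 was most like Plcxd2 (0.90), Deptor (0.89) and 2210408K08Rik (0.89), and Il18 had weaker likeness, with 0.71 for Iqsec2 as its highest.

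Other genes of the pathway were described with a list of 76 symbols by role, of which 66 had a probe set of their own and 45 were tested. In undivided against non-bulge cells at PD25, 1 of 45 passed higher (5.71% of all genes) and 8 lower (4.83%), with a list median of -0.57 beside -0.02 over all genes. At PD21, 1 passed higher (6.12% of all genes) and 4 lower (4.93%), with a median of -0.16 beside -0.05. In divided against non-bulge cells at PD25, 1 passed higher (5.62% of all genes) and 6 lower (3.25%), with a median of -0.32 beside -0.02. At PD21 0 passed in that comparison, where 0.182% of all genes passed. In divided against undivided cells 0 passed at PD25 (0% of all genes). At PD21 3 passed higher (3.91% of all genes) and 1 lower (4.37%), with a median of 0.35 beside 0.07.

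Among the ligands, Il1f9, which encodes IL-36 gamma, had signals of 34, 53.6 and 86.2 in divided bulge cells at PD25 and 1102.3, 465.6 and 744.5 at PD21. It fell by 3.39 in PD25 against PD21 divided cells (SE 0.55, adjusted p = 0.00027). The groups did not overlap, as for 21.3% of all genes, and every PD21 array was above every PD25 array. Il1f9 also fell by 2.34 in divided (adjusted p = 0.0059) and by 2.16 in undivided bulge cells (adjusted p = 0.00927) against non-bulge cells at PD25, and rose by 1.94 in divided against undivided cells at PD21 (adjusted p = 0.0261).

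Among the receptors, Il1rl2, which binds IL-36 cytokines and is the neighbour of Il1r1, fell by 1.40 in undivided against non-bulge cells at PD25 (adjusted p = 0.000741) and by 1.11 at PD21 (adjusted p = 0.00635). It rose by 0.97 in divided against undivided cells at PD21 (adjusted p = 0.023). The accessory protein Il1rap and the inhibitory receptor Sigirr were tested and did not pass in these comparisons. Il18r1, Il18rap and Il1rapl1 had a probe set and were below the filter, and Il1rl1, the receptor of IL33, was not analysed here.

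Among signalling genes, 26 were tested, and the calls fell on Irak3, which encodes an inhibitory IRAK, and Nfkbiz, an inducible nuclear cofactor of NF-kB. Irak3 had signals of 1.4, 36.3 and 19.9 in undivided bulge cells and 558.7, 359.8 and 553.1 in non-bulge cells at PD25, and fell by 3.96 (SE 0.66, adjusted p = 0.000165). It fell by 2.69 in divided against non-bulge cells at PD25 (adjusted p = 0.00921) and by 2.55 in undivided against non-bulge cells at PD21 (adjusted p = 0.0117). Nfkbiz had signals of 473.9, 1063.6 and 1616 in divided bulge and 3645.1, 2711.1 and 5110.5 in non-bulge cells at PD25, and fell by 1.96 (SE 0.33, adjusted p = 0.000228). All 3 divided arrays lay below all non-bulge arrays, in a comparison where 21.9% of all genes did not overlap. At PD21 Nfkbiz fell by 1.39 in undivided against non-bulge cells and rose by 1.31 in divided against undivided cells, and it fell by 1.99 in PD25 against PD21 divided cells, all past the threshold. Myd88, Irak1, Traf6 and Rela, the common path from receptor to NF-kB, were tested and none passed in the 6 fraction comparisons.

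Among processing genes, Casp4, which encodes the mouse inflammatory caspase 11, had signals of 14.9, 35.7 and 28.4 in undivided bulge and 634.7, 1649.3 and 479.3 in non-bulge cells at PD25, and fell by 4.30 (SE 0.90, adjusted p = 0.00176). It fell by 3.56 in divided against non-bulge cells (adjusted p = 0.0109). At PD21 its difference in undivided cells was -1.45 and did not pass. Capn2, a calpain subunit of the family that cleaves the IL1A precursor, moved the other way and rose by 2.29 in undivided against non-bulge cells at PD21 (SE 0.31, adjusted p = 1.09e-05). Capn2 was also the 1 gene that rose in undivided (1.87) and divided (1.68) against non-bulge cells at PD25, and it is named there after its values were seen. Casp1 rose by 1.80 in PD25 against PD21 divided cells (adjusted p = 0.0479).

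Among known targets of the pathway in keratinocytes, 7 of 16 were tested. In undivided against non-bulge cells at PD25, Ptgs2, the inducible cyclooxygenase, fell by 3.24 (adjusted p = 0.0162), Tslp, an epithelial cytokine, by 2.88 (adjusted p = 0.00739) and Cxcl1, a neutrophil chemokine, by 2.74 (adjusted p = 0.0114). Tslp fell by 3.56 (adjusted p = 0.00138) and S100a8, a calcium-binding alarm protein, by 2.24 (adjusted p = 0.0497) in divided against non-bulge cells at PD25. The adhesion gene Icam1 fell by 1.24 (adjusted p = 0.014) in undivided against non-bulge cells at PD21.

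**Figure D4:**
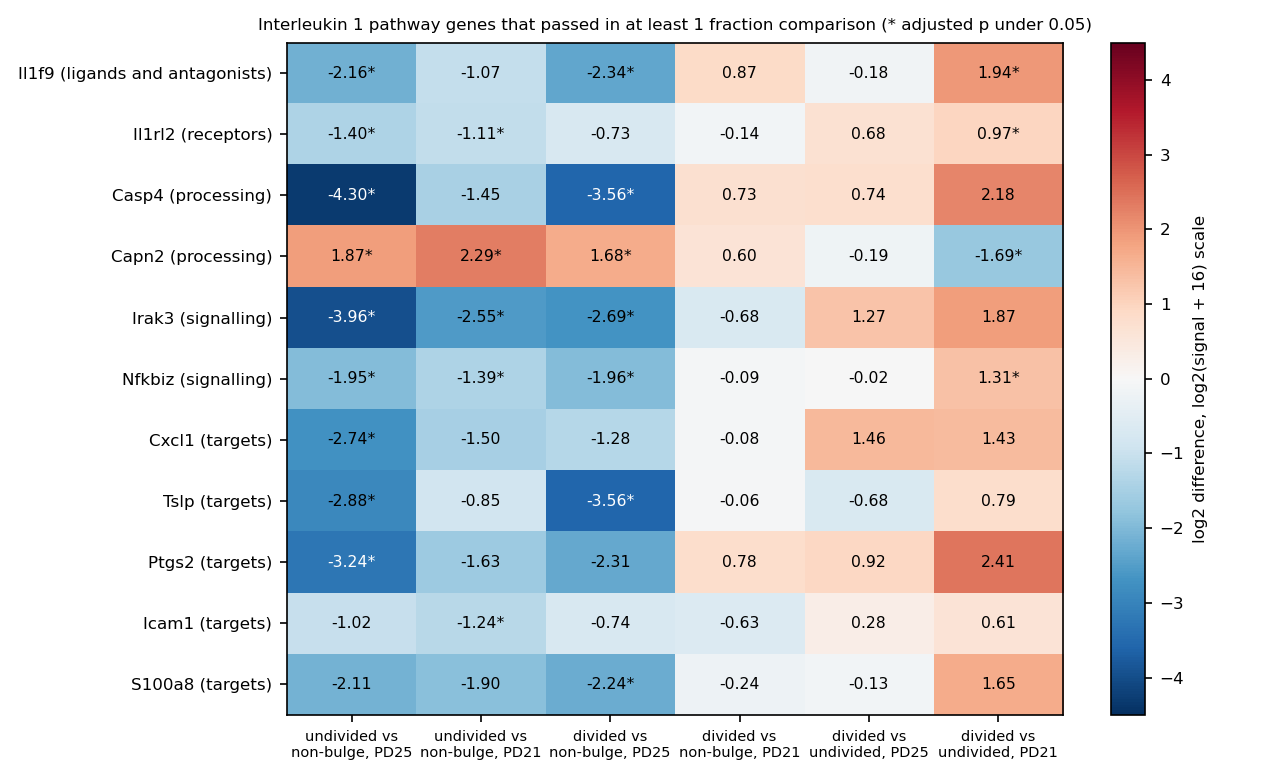
Fitted log2 differences of the 11 pathway genes that passed in at least 1 of 6 fraction comparisons, with the role of each gene in brackets, values printed in the cells, and an asterisk where the adjusted p was under 0.05. Capn2 is positive in undivided against non-bulge cells at both ages, and the other 10 genes are negative there.

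In PD25 against PD21 divided cells, Casp1 and Capn2 rose and Il1f9, Nfkbiz and Tslp fell, of 45 tested pathway genes (4.37% of all genes passed higher and 3.47% lower). In the difference of divided minus non-bulge cells between the ages 2 of 45 passed, both lower, beside 1.63% of all genes (0.717% lower). They were Il1f9 at -3.21 (adjusted p = 0.0355) and Nfkbiz at -1.88 (adjusted p = 0.0397). In each of the other age comparisons 0 of 45 passed by limma, where 1.18% of all genes passed for divided minus undivided cells and at most 0.0951% in the others.

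Cells other than keratinocytes can carry these genes, and their markers were read in the same fractions. The 11 leukocyte genes summed to 579.8 to 917.8 in divided bulge, 526.8 to 935.3 in undivided bulge and 428.8 to 693.6 in non-bulge cells at PD25, and these ranges overlapped. At PD21 they summed to 560.9 to 1243 in divided bulge, 999.7 to 1101 in undivided bulge and 602.2 to 2749 in non-bulge cells, with the highest value in mouse 1. Ptprc, the common leukocyte antigen, was between 5.1 and 203.2 on all arrays, and Cd207, the Langerhans cell marker, between 3.8 and 91.6. Of the other Langerhans and dendritic genes, Cd74 was brighter at 92.8 to 1065.3, H2-Aa at 46 to 1101.5 and H2-Ab1 at 44.4 to 609.3. These are antigen presentation genes, as is H2-Eb1, which was at 2.2 to 371.7. That list (6 genes, with Epcam, which epithelial cells also express) summed to 5956 to 8964 in divided bulge, 4208 to 6340 in undivided bulge and 3670 to 10760 in non-bulge cells at PD25. At PD21 it summed to 6143 to 9504 in divided bulge, 4158 to 7717 in undivided bulge and 3034 to 8989 in non-bulge cells. The dermal fibroblast list (7 genes) summed to 6442 to 16670 in divided bulge, 8402 to 10970 in undivided bulge and 4090 to 8324 in non-bulge cells at PD25. At PD21 the sums were 6118 to 9712, 14050 to 28810 and 3294 to 5176 in the same fractions. On each undivided bulge array at PD21, 2 of the 7 genes exceeded the array median, so that few genes carried the sum. There Col1a1 was 713.6 to 1108.8, while Col1a2 and Col3a1 were at most 49.4 and 25.7. The mast cell, endothelial and melanocyte lists (4 genes each) summed to at most 126.6, 226.5 and 428.6 on any array. The part of these cells in the members' levels was not tested.

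The T cell list (4 genes) summed to 1018 to 1400 in divided bulge, 884 to 1599 in undivided bulge and 2490 to 3965 in non-bulge cells at PD25. At PD21 it summed to 2038 to 4323 in divided bulge, 1248 to 2814 in undivided bulge and 2862 to 4144 in non-bulge cells, so that, like Il33, Il1r2 and Il1rn, it was above undivided cells in non-bulge cells at both ages, while PD21 divided cells reached as high as non-bulge cells and overlapped with undivided ones. That sum was carried by Thy1, at 839.3 to 4104.9 over 18 arrays, while Cd3e, Cd3g and Cd3d were at most 307.2, 195.6 and 74.8. Whether Thy1-positive cells contributed to the members' levels was not tested.

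Among 6 genes of basal and suprabasal epidermis, Ly6d and Gata3 had a pattern like that of these members. Ly6d, a surface protein of keratinocytes, had signals of 1224.9 to 1493.5 in divided bulge, 478.2 to 913.9 in undivided bulge and 6287.7 to 7831.8 in non-bulge cells at PD25. At PD21 Ly6d had 3935.3 to 8514.9 in divided bulge, 1503.7 to 1672.6 in undivided bulge and 4487.8 to 7948.8 in non-bulge cells. It fell by 2.30 in PD25 against PD21 divided cells (adjusted p = 1.31e-05), and its age difference of divided minus non-bulge cells was -2.46 (adjusted p = 0.00235). Gata3, a transcription factor of epidermis, had 668.9 to 1713 in divided bulge, 897 to 1142.2 in undivided bulge and 2035.6 to 4317.8 in non-bulge cells at PD25, and 2450.6 to 3284.6, 918.4 to 1516.2 and 2892.7 to 3628.3 in the same fractions at PD21. Krt5, Krt14, Krt1 and Krt10, also on this list, overlapped between all fractions at PD21. At PD25 Krt5, Krt14 and Krt10 overlapped between all fractions, though non-bulge cells exceeded undivided ones of the same mouse in every mouse. For these genes divided cells lay above undivided ones in mice 1 and 3 and below them in mouse 2 at PD25. Krt1 was then 6614.3 to 13199.5 in divided bulge, 3281 to 4438.9 in undivided bulge and 7281.1 to 25563.6 in non-bulge cells. Whether the share of basal and suprabasal cells moved the members was not tested.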

How the data were processed

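Gene expression was measured on 18 arrays, 3 mice in each of 6 groups. Per the submitters' processing notes, the authors made the deposited values with GCOS, which gives each probe set a linear intensity. The 2% trimmed mean was 500 on every array, so no further scaling was applied. Present calls were not used. Of 45101 probe sets, 64 were controls and 34945 had 1 gene symbol; those with several (932) or none (9160) were left out.

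Signals were taken as log2(signal + 16), which understates changes of dim genes. After the filter on 3 arrays above the median, each gene was represented by its probe set of highest mean log2 signal. Group means were fitted with limma 3.58.1 in R 4.3.3 (lmFit, eBayes with a trend; 12 residual and 11.2 prior degrees of freedom), and p-values were adjusted over 11569 genes. The number of arrays limits the precision. The fit was tested on simulated data. Titles give same-numbered fractions of one age as one mouse, and their deviations correlated at 0.07 to 0.46 in 18 pairs. The highest correlation with another mouse of the same age was 0.13, above some of these values. All fractions of a mouse lay in the same array set, so these correlations also hold differences between the sets. The mouse was a block in an alternative. Array sets were read from the BioB controls and are not a batch that the labels name. Genes of the pathway list that passed were named by size, at most 6 a comparison. Capn2 at PD25 and Il1rl2 in undivided against non-bulge cells at PD25 were named beyond that limit. The 3 most like genes of each tested member were taken by correlation. The members and lists were chosen with earlier results of these data known. Sequences are from RefSeq (GRCm38.p6), which had 11 windows for the 7 members.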

Additional observations from a re-analysis of the deposited data

Results flagged for a closer look

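In 5 cases the effect of a fraction differed between the ages by the test of that difference itself, an interaction in limma. Il33 differed by -3.29 in divided minus non-bulge cells and by -3.27 in divided minus undivided cells (PD25 minus PD21, log2 scale). Il1rn differed by -2.67 in divided minus non-bulge cells and by -2.54 in divided minus undivided cells. Of its other probe sets, 1451798_at did not pass in either difference, and 1425663_at did not pass in divided minus undivided cells. Il1r2 differed by -2.76 in divided minus non-bulge cells, a call that was lost in 13 of 27 alternative settings. All 5 use the fraction labelled divided bulge at PD21, whose bulge genes summed to 4059 to 8279, against 34420 to 43430 in undivided bulge cells of that age.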

How the results depend on the processing

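The number of tested members past the threshold was compared over 27 alternatives that were planned (pseudocounts 1 and 64, no filter, every probe set, quantile normalization, no variance trend, array weights, blocks, and each array left out) and within each array set, added after the data were seen. Set A holds 1 PD25 mouse and set B 1 PD21 mouse, so that calls and counts within a set say little. Among all 1740 member values compared, 57 changed sign, all with adjusted p of 0.643 or above, and 34 changed their call, of which 15 were lost and 1 was gained within a set. With the mouse as a replicate block, the counts of members were unchanged, at 3 and 4 lower in undivided against non-bulge cells at PD25 and PD21, and Il1r2 in divided against undivided cells at PD25 had an adjusted p of 0.058. The count in divided against undivided cells at PD25, which was 0, was 1 within array set A and 0 to 1 with an array left out. The counts of 3 and 2 for the age differences of divided minus non-bulge and divided minus undivided cells were 0 within set A and 0 within set B, where 0.769% and 0.484% of all genes passed in set A and 0% in set B, and 2 to 3 and 2 to 2 with an array left out. Over all genes, the age difference of divided minus non-bulge cells had 189 calls, 451 with the mouse block, 352 with the array set as a block and 65 without a variance trend, and that of divided minus undivided cells had 137, 506, 392 and 81. Undivided against non-bulge cells at PD21 had 1278 calls, 1926 with the mouse block and 409 within set B, and divided against undivided cells at PD21 had 958, 1533 and 94. PD25 against PD21 divided cells had 907 calls over all genes, 59 within set B, and 532, 525 and 548 without PD21 divided mouse 1, PD21 divided mouse 2 and PD25 divided mouse 3. Divided against non-bulge cells at PD21 had 21 calls, and 4 without PD21 divided mouse 3. PD25 against PD21 undivided cells had 11 calls, and 6 to 47 with an array left out, the highest without PD25 divided mouse 2. With an array left out, the age difference of divided minus non-bulge cells had 62 to 271 calls, the lowest without PD21 divided mouse 1, and that of divided minus undivided cells 69 to 251, the lowest without PD21 divided mouse 2 and the highest without PD25 divided mouse 2. Low signals near the background limit what can be said of Il1a, Il1b and Il18, and of the size of the Il33 and Il1r2 decreases in undivided cells.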
